A study of Rattus norvegicus with 146 samples.

Results

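The adrenal gland was set against 4 other organs of female rats: kidney, liver, lung and spleen. Of 146 organ samples 30 were adrenal glands, chosen by the organ named in their labels. Of these, 15 came from the spontaneously hypertensive rat (SHR), an inbred strain whose blood pressure climbs as it matures, and 15 from the Wistar-Kyoto rat (WKY), its normotensive control, at 8, 10, 12, 16 and 24 weeks of age with 3 samples per strain and age. The other organs gave 30 kidney, 27 liver, 30 lung and 29 spleen samples of the same strains and ages, and no liver of a WKY rat at 12 weeks was analysed here. The labels name no treatment, no transgene and no pooling. RNA of 92 genes was measured by quantitative PCR. The level of a gene in a sample was taken as the median cycle threshold (Ct) of that sample minus the Ct of the gene, a log2 scale on which 1 unit is 1 PCR cycle and a higher value is more RNA relative to the other genes of the sample. Levels were compared for 1 gene between organs, not between genes, because each primer pair amplifies with its own efficiency. The summed levels of the hepatocyte and macrophage lists below are an exception. They add genes of different primer pairs, so the weight of each gene in the sum depends on its primers.

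The adrenal gland joins an outer cortex, which makes aldosterone, corticosterone and other steroid hormones, to an inner medulla, whose chromaffin cells make and release catecholamines. Tyrosine hydroxylase, encoded by Th, catalyses the rate-limiting step of catecholamine synthesis. Angiotensin II drives aldosterone release from the cortex, and atrial natriuretic peptide, acting through the receptor encoded by Npr1, opposes it, so the gland takes part in the control of blood pressure from both of its layers. Of the marker lists used here the panel held 1 of 6 genes of chromaffin cells, Th itself, and 0 of 9 genes of the adrenal cortex, so the share of cortex in these samples could not be read. In whole organs, fewer cells of a type and less RNA per cell cannot be told apart.

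The median Ct of the adrenal samples was 10.5, from 6.08 to 12.8, against 10.2 in kidney, 10.8 in liver, 8.68 in lung and 9.88 in spleen. In 3 adrenal samples it lay more than 2 cycles from that of the organ: replicate 3 of the WKY rats at 8 weeks (7.57), replicate 3 of the WKY rats at 24 weeks (6.08) and replicate 1 of the SHR at 10 weeks (12.8). The table has a floor at a Ct of 2.5, which held 58 adrenal values of 120 in all. In the WKY sample of 24 weeks 17 genes sat at this floor, which caps its levels at 3.58, and it was the lowest adrenal sample for 9 of the 19 genes called highest in the adrenal gland below. Replicate 1 of the SHR at 8 weeks was the highest for 11 of them. Lung had the lowest median Ct, and the comparison with lung depended on the baseline: of its 78 called differences 27 changed sign under at least 1 of the 4 other baselines tried, against 3 of 68 for kidney, 2 of 70 for liver and 2 of 78 for spleen. With the mean Ct of 4 reference genes as the baseline, the median adrenal minus lung difference over all tested genes was -1.04, where the sample median gave 0.71. Actb, 1 of these reference genes, sat at the floor in 27 of 30 lung and 22 of 29 spleen samples. The counts were 2 of 30 in the adrenal gland, 6 of 30 in kidney and 0 of 27 in liver. A Ct at the floor is only an upper bound.

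Measured over the 82 genes that could be tested against all 4 organs, the adrenal profile lay nearest to that of kidney. The median absolute difference in level was 1.03 between adrenal gland and kidney, 1.24 between adrenal gland and liver, 1.39 between adrenal gland and lung and 1.58 between adrenal gland and spleen. Among the other organs it ran from 0.98 (kidney and lung) to 1.93 (liver and spleen). The adrenal gland had the highest mean level of the 5 organs for 24 of these genes and the lowest for 8. Against kidney 33 of 87 genes tested were higher in the adrenal gland (37.9%) and 35 lower (40.2%), together 78.2%. Against liver 47 of 83 were higher (56.6%) and 23 lower (27.7%), together 84.3%. Against lung 47 of 86 were higher (54.7%) and 31 lower (36%), together 90.7%, and against spleen 47 of 87 were higher (54%) and 31 lower (35.6%), together 89.7%. These calls come from 1 limma fit over all samples with a threshold of 0.05 on the Benjamini-Hochberg adjusted p. The 4 comparisons share the adrenal samples. The median difference over all tested genes was 0.01 against kidney, 0.47 against liver, 0.71 against lung and 0.70 against spleen.

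Th separated the adrenal gland from the other organs without overlap. Its level in the 30 adrenal samples ran from 3.49 through a median of 5.04 to 6.24. It had a value in 22 of 30 kidney samples, where it ran from -10.38 to -2.60 with a median of -7.82, and in 20 of 30 lung samples, from -11.31 to -6.21. Only 4 of 27 liver samples had a value, with -7.60 the highest, while 28 of 29 spleen samples did, from -6.88 to -4.72. Every adrenal sample was thus above every other sample that had a value. With so many values missing elsewhere, Th could be tested only against spleen, where the difference was 10.60 ± 0.25 (SE, limma, adjusted p = 5.58e-47). Within the adrenal gland the level was 4.65 to 6.24 (median 5.44) in SHR and 3.49 to 5.27 (median 4.17) in WKY. These ranges overlap, and SHR minus WKY over 8, 10, 16 and 24 weeks was 1.16 ± 0.39 (SE, limma, adjusted p = 0.022). The same difference in spleen was 0.12 ± 0.40 (adjusted p = 0.82). The promoter of Th is shown because this gene marks the organ. The RefSeq window on build GRCr8 spans 300 bases around the gene start (chr1:207508169-207508468, minus strand) and holds 1 cyclic AMP response element, the palindrome TGACGTCA, in capitals, 69 bases before the start. Of 33469 rat promoter windows of this length 1.83% hold these letters on either strand.
Th: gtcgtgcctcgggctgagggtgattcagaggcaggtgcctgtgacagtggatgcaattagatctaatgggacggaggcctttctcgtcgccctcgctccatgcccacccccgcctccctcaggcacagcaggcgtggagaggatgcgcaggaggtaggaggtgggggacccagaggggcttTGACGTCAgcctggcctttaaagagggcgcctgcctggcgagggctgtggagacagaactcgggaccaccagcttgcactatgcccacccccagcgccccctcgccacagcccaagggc

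**Figure D1:**
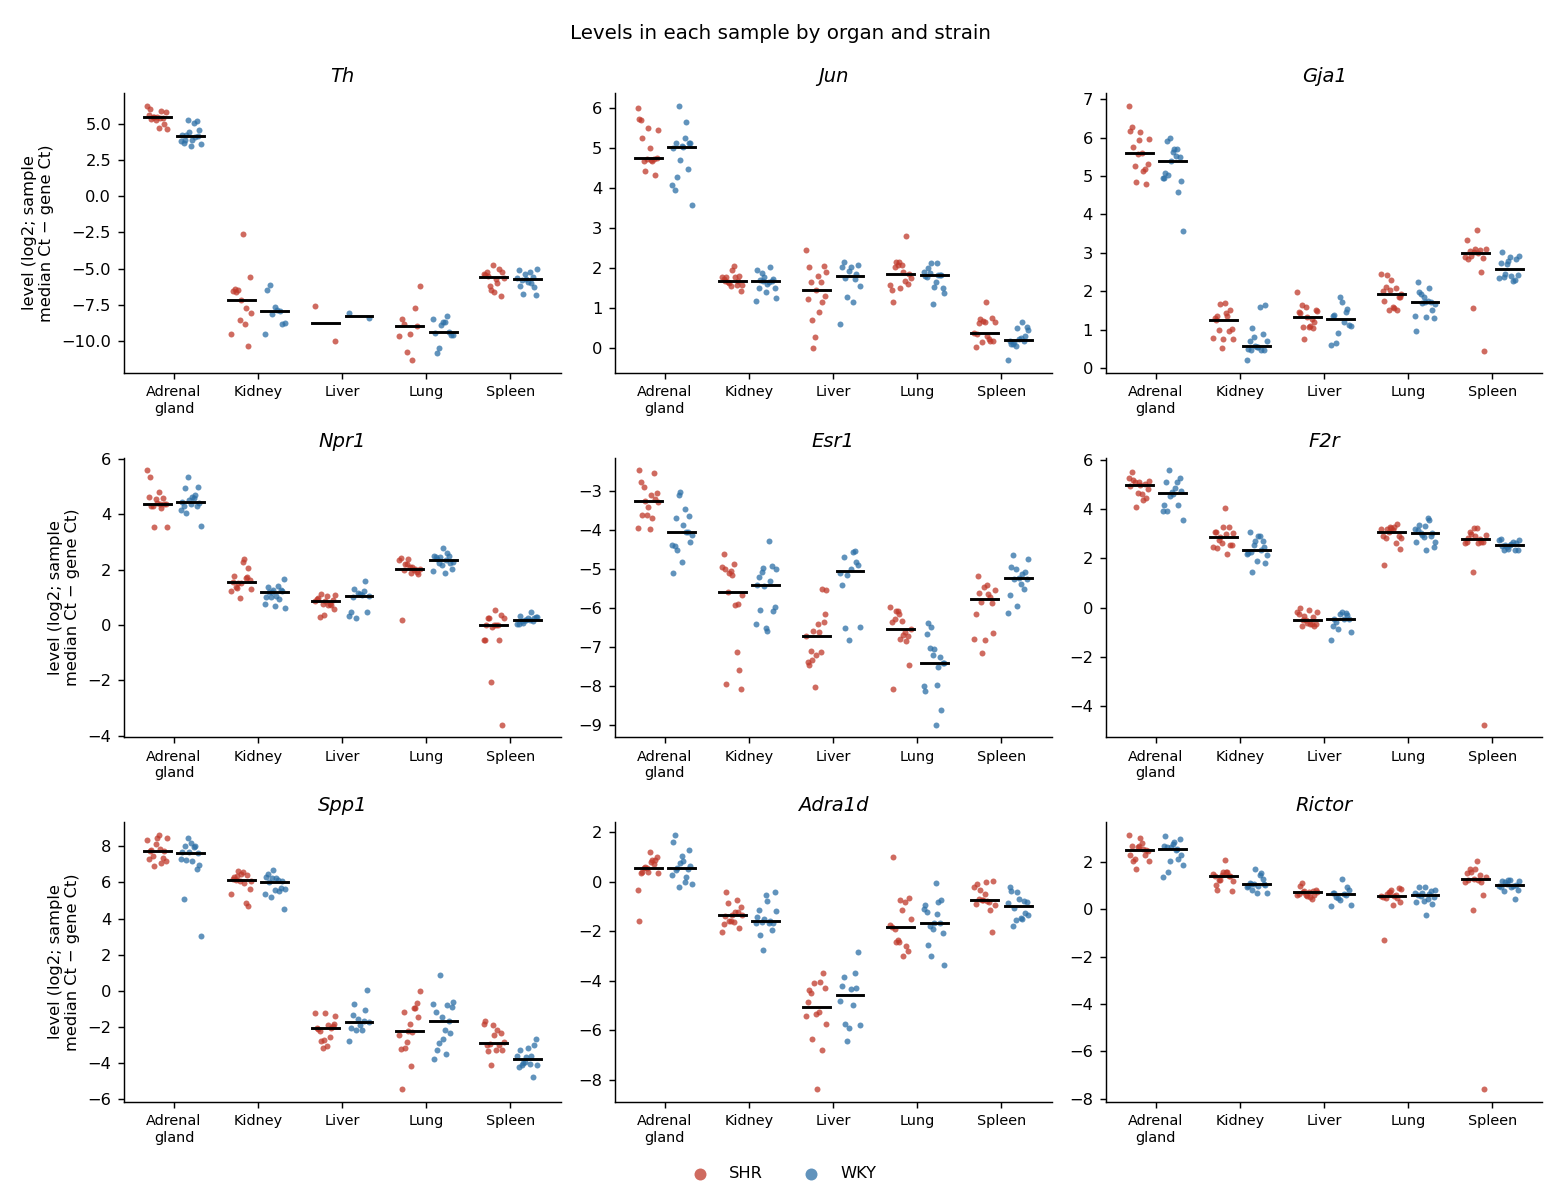
Levels (log2 scale, sample median Ct minus gene Ct) of Th and of the 8 genes with the largest adrenal excess over the next organ, by organ. Points are samples, red for SHR and blue for WKY, and black bars are medians. All 30 adrenal points of Th, Jun and Npr1 lie above every point of the other organs, while Spp1 and Adra1d overlap with kidney or lung.

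Of the 82 genes, 19 (23.2%) were called highest in the adrenal gland, meaning that they passed the test against each of the other 4 organs. In all 92 genes, 3 (3.26%) had every adrenal sample above every sample with a value elsewhere: Th, Jun and Npr1. Jun, a subunit of the AP-1 transcription factor, had levels of 3.58 to 6.05 in the adrenal gland (median 5.00). The next organ was lung, at 1.10 to 2.80 (median 1.83), and kidney and liver were close to it, with medians of 1.68 and 1.65. The adrenal excess over lung was 3.13 ± 0.10 (SE), 8.74-fold, and that over spleen was 4.57 ± 0.11. Npr1, the receptor for atrial natriuretic peptide, ran from 3.52 to 5.58 in the adrenal gland (median 4.41) and from 0.20 to 2.77 in lung (median 2.20). The difference was 2.32 ± 0.14 (SE), 5.01-fold, with no overlap. It was 3.10 ± 0.14 over kidney, the organ in which this peptide also acts to shed salt.

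Gja1, which encodes the gap junction protein connexin 43, ran from 3.58 to 6.83 in the adrenal gland (median 5.51) and from 0.45 to 3.61 in spleen, the next organ (median 2.83). The overlap was 1 adrenal sample, the WKY sample of 24 weeks whose levels are capped, and 1 spleen sample. The excess over spleen was 2.75 ± 0.12 (SE), 6.74-fold, and that over kidney 4.48 ± 0.12. Esr1, the estrogen receptor alpha, was at -5.08 to -2.46 in the adrenal gland (median -3.62) and -7.16 to -4.63 in spleen (median -5.51). The difference was 2.00 ± 0.17 (SE), 4.01-fold, and 24 of 30 adrenal samples lay above every other sample. F2r, a receptor for the clotting protease thrombin, was at 3.58 to 5.58 in the adrenal gland (median 4.83, 29 samples) and 1.72 to 3.63 in lung (median 3.02), a difference of 1.76 ± 0.19 (SE) or 3.38-fold. Adjusted p-values of these 5 genes against their next organ ran from 6.55e-51 (Jun) to 2.14e-14 (F2r). The difference of F2r from lung was -0.04 with 4 reference genes as the baseline and 0.08 with the raw Ct values.

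Windows of 20 genes, Th and the 19 called highest, were looked up in the RefSeq promoter table, and 18 matched. Jun was not among them. Because Jun belongs to AP-1, the windows that hold its response element are shown. The letters TGACTCA, read on either strand, occurred in those of Gja1 (chr20:36302314-36302613, plus strand), 58 bases before the start, and F2r (chr2:28620530-28620829, minus strand), 194 bases before it. Capitals mark the element, here as TGAGTCA. Of all 33469 windows 4.63% hold it, and 2 of 18 is a description of these windows, not of binding.
Gja1: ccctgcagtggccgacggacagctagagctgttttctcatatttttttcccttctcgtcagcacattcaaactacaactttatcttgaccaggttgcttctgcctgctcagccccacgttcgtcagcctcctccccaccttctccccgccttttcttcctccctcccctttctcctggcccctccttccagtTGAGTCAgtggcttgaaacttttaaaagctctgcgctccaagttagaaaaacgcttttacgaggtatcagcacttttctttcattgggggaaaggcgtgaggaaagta
F2r: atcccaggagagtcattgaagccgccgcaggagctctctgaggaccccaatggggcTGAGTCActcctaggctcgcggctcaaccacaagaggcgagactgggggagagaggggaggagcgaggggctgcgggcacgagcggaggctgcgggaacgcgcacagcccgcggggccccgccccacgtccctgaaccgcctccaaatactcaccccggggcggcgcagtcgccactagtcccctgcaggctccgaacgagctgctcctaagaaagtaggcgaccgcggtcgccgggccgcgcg
The element of the steroidogenic factor encoded by Nr5a1, AAGGTCA, was found in 1 of the 18 windows, that of Tlr3, and in 4.61% of all windows, and the cyclic AMP element in that of Th alone.

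The excess of Spp1 and Hspd1 is blurred by the floor of the table. Spp1, which encodes the secreted phosphoprotein osteopontin, had 13 of 30 adrenal values at the floor and levels of 3.01 to 8.64 (median 7.69), against 4.52 to 6.70 in kidney (median 6.08). The difference from kidney was 1.54 ± 0.23 (SE, adjusted p = 2.5e-09), while its excess over liver, lung and spleen was 9.33 to 10.68. Hspd1, a chaperonin of mitochondria, had 20 of 29 adrenal values at the floor, at 1.68 to 9.43 (median 7.77), against 5.92 to 6.95 in liver (median 6.54), a difference of 1.18 ± 0.18 (SE, adjusted p = 1.99e-09). A value at the floor is a bound from below on the level, and neither gene could be tested with these values left out. Of the 29 adrenal values of Hspd1, 28 lay above every other sample and 1 below all of them. With missing values set to the last cycle the excess of Hspd1 over liver was 0.0171 (adjusted p = 0.981). That fit rests on 1 set value, since 1 adrenal sample and no sample of another organ lacked a value for Hspd1.

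Adra1d, an alpha-adrenergic receptor, ran from -1.58 to 1.90 in the adrenal gland (median 0.57) and from -2.01 to 0.04 in spleen (median -0.79), 1.37 ± 0.20 higher (SE, adjusted p = 5.05e-10). Of the 30 adrenal samples 25 lay above all spleen samples and 5 above all other samples. Rictor, a defining subunit of an mTOR complex, was at 1.36 to 3.14 in the adrenal gland (median 2.51) and 0.67 to 2.06 in kidney (median 1.22), 1.21 ± 0.20 higher (SE, adjusted p = 1.06e-07), and 23 of 30 adrenal samples lay above all others. Ctsd, the lysosomal protease cathepsin D, was at 3.58 to 7.51 in the adrenal gland (median 6.38) and 4.44 to 5.92 in kidney (median 5.16), 1.15 ± 0.21 higher (SE, adjusted p = 4.79e-07). Here 26 of 30 adrenal samples were above all others and the capped WKY sample was below every kidney sample. Cnbp, a nucleic acid binding protein, was at 3.58 to 6.12 in the adrenal gland (median 5.14) and 3.64 to 5.02 in liver (median 4.31), 0.71 ± 0.11 higher (SE, adjusted p = 1.48e-08). Rela, a subunit of NF-kB, was at 2.44 to 3.96 in the adrenal gland (median 3.20) and 1.88 to 3.09 in liver (median 2.42), 0.71 ± 0.12 higher (SE, adjusted p = 2.18e-07). For both genes more than 10 adrenal samples stayed within the range of liver.

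Of the other genes called highest, 6 are described here. They exceeded their next organ by 0.28 to 0.59, and their ranges overlapped with it. They were Foxo1, a forkhead transcription factor (0.59 ± 0.12 over spleen, SE), Eif4e, the cap-binding translation factor (0.48 ± 0.11 over kidney), Tlr3, a receptor for viral RNA (0.40 ± 0.10 over kidney), Hmgb1, a chromatin protein (0.30 ± 0.07 over kidney), Fkbp1a, an immunophilin (0.30 ± 0.10 over liver), and Rhoa, a small GTPase of the cytoskeleton (0.28 ± 0.12 over kidney, adjusted p = 0.0297). At most 11 of 30 adrenal samples of any of them lay above all other samples. Rhoa lost its call without replicate 1 of the SHR at 8 or 16 weeks, replicate 3 of the WKY rats at 10 weeks or replicate 1 of the WKY rats at 24 weeks, with 0.23 to 0.36 over all single samples left out. Of the 19 genes 8 remained called with the 3 reference genes Actb, Gapdh and Rpl13a as the baseline (Jun, Gja1, Npr1, Esr1, Spp1, Hspd1, Cnbp and Adra1d), 7 of them with 4 reference genes, and 14 with the median of the 57 genes measured in every sample. Both reference baselines include Actb, which sat at the floor in most lung and spleen samples. All 19 were called without the 6 samples of aberrant median Ct.

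Genes lowest in the adrenal gland were few, 4 of 82 (4.88%), and no gene had every adrenal sample below every other. Smad3, which carries transforming growth factor beta signals to the nucleus, ran from -5.16 to -1.96 in the adrenal gland (median -3.22) and from -3.00 to -0.20 in lung, the next organ (median -2.28). The difference was -1.43 ± 0.16 (SE, adjusted p = 4.94e-14), and 18 of 30 adrenal samples lay below all other samples. Against liver, where Smad3 reached 1.58 to 3.20, it was -5.98 ± 0.17. Tnf, the inflammatory cytokine, was at -8.09 to -3.37 in the adrenal gland (median -5.83) and -6.47 to -3.92 in liver (median -5.20), a difference of -0.60 ± 0.21 (SE, adjusted p = 0.00613), with 8 of 30 adrenal samples below all others. It was -0.29 in WKY alone (adjusted p = 0.427) and with raw Ct values (adjusted p = 0.384). Slc1a4, a transporter of neutral amino acids, differed from spleen by -0.49 ± 0.13 (SE, adjusted p = 0.000451), and Tlr4, the receptor for bacterial lipopolysaccharide, differed from liver by -0.28 ± 0.08 (SE, adjusted p = 0.00155). Their ranges overlapped widely, and Slc1a4 ran from -2.68 to 0.68 in the adrenal gland against -3.24 to -0.84 in spleen. With the raw Ct values the difference of Tlr4 from liver was 0.03.

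**Figure D2:**
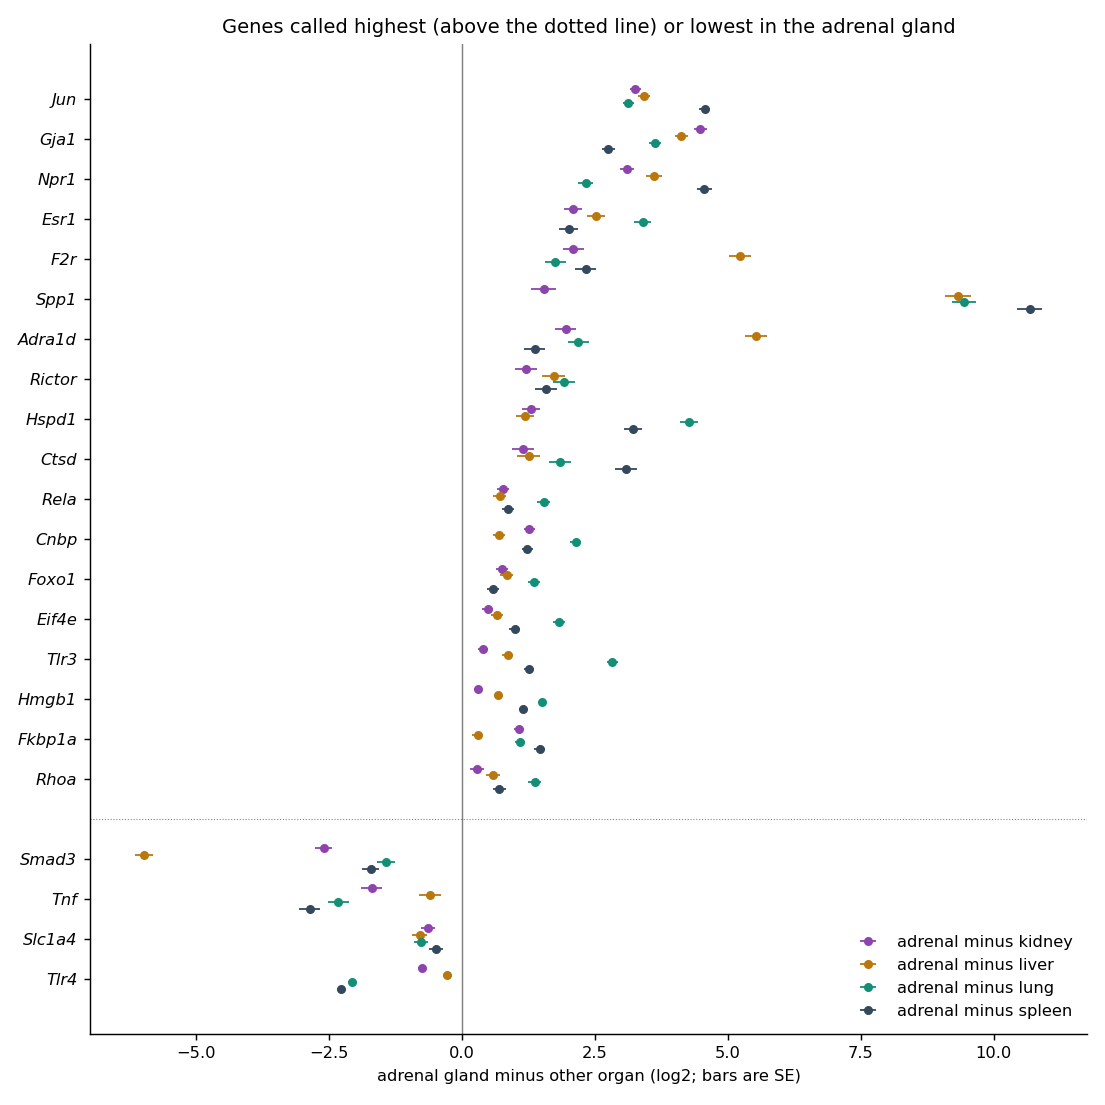
Adrenal gland minus each other organ (log2 scale, bars are SE) for 18 of the 19 genes called highest, above the dotted line, and the 4 called lowest. Spp1 stands 1.54 above kidney and over 9 above the other organs, while the genes from Rela down to Rhoa in the upper block lie under 1 from their next organ.

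Genes of catecholamine synthesis and of adrenergic receptors did not move as 1 group. Of 20 genes on that list the panel held 4. Beside Th and Adra1d, Adrb1, a beta-adrenergic receptor of heart and kidney, ran from -6.07 to -1.25 in the adrenal gland (median -2.68) against -1.39 to 0.00 in kidney (median -0.65) and -0.51 to 0.50 in lung (median 0.00). It was lower than in 3 organs, with differences of -2.50 ± 0.17 from kidney (SE, adjusted p = 2.02e-25), -3.12 ± 0.17 from lung and -2.01 ± 0.18 from spleen, and it differed from liver by -0.19 ± 0.18 (adjusted p = 0.317). Adra1a, an alpha-adrenergic receptor like Adra1d, differed from kidney by -2.59 ± 0.27 and from liver by 2.47 ± 0.29 (SE). Over the 3 receptors tested the median difference was -2.50 against kidney, 2.47 against liver and -1.43 against lung. Th was not tested there and is not in these medians. Against spleen 4 members were tested, Th among them, with a median of 0.75.

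Of the angiotensin system 4 genes are described. Agt, the precursor angiotensinogen made chiefly by the liver, had the widest spread: -6.58 to 4.12 in the adrenal gland (median 1.39), 6.20 to 7.48 in liver, -3.19 to 2.20 in kidney and -2.35 to -0.40 in spleen. The adrenal range took in all kidney and spleen samples and stayed below all liver samples. Agt was 1.40 ± 0.35 higher than in kidney (SE, adjusted p = 0.000227), and in WKY alone this difference was -0.15. Its differences from lung and spleen in WKY alone were 0.12 (adjusted p = 0.854) and 0.75 (adjusted p = 0.267). The SE given for Agt rests on a spread shared by all organs and is too small for its wider adrenal spread. The hepatocyte list (3 of 5 genes: Agt, Arg1 and Hsd17b13) summed to a level of -0.65 to 4.16 in the adrenal gland, against 7.56 to 8.61 in liver and -0.14 to 2.50 in kidney. This sum includes Agt itself, and the part of hepatocytes in the spread of Agt was not tested. In the adrenal gland Arg1 ran from -4.36 to -0.79 and Hsd17b13 from -3.32 to -0.12.

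Ace, the enzyme that makes angiotensin II, at home on lung endothelium, differed from lung by -5.11 ± 0.12 (SE), at -2.18 to -0.23 in the adrenal gland against 2.65 to 4.59 in lung. Its difference was -1.24 ± 0.12 from kidney, or -0.34 in SHR alone (adjusted p = 0.105), and 2.88 ± 0.13 from liver. Agtr1a, an angiotensin II receptor, ran from -1.02 to 1.76 in the adrenal gland (median 0.67), 2.93 to 4.05 in liver and 0.45 to 2.63 in kidney. It differed by -2.81 ± 0.11 from liver (SE), by -0.93 ± 0.11 from kidney and by 1.56 ± 0.11 from spleen. Agtrap, an adaptor that binds this receptor, differed from kidney by -1.16 ± 0.19 and from spleen by 1.54 ± 0.19 (SE). Its difference from liver was 0.42 ± 0.20 (adjusted p = 0.048), a call lost on leaving out any 1 of 17 of the 30 adrenal samples. Against lung Agtr1a stood at 0.96 and Agtrap at 1.46, and these became -0.79 and -0.29 with 4 reference genes as the baseline. The median difference of these 4 genes was 1.21 against lung and 1.51 against spleen.

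Of 20 steroid genes the panel held 4, none of them an enzyme of corticosteroid synthesis. Beside Esr1, Cyp19a1, the aromatase that makes estrogens, ran from -8.67 to -0.42 in the adrenal gland (median -3.07) against -5.36 to -0.19 in kidney (median -1.50), a difference of -2.19 ± 0.43 (SE, adjusted p = 2.61e-06), and it differed from liver by 0.24 ± 0.45. The difference from kidney was -1.09 in WKY alone (adjusted p = 0.139), and adrenal gland minus the mean of the other organs was -2.50 in SHR and -0.28 in WKY, a strain difference of -2.23 ± 0.76 (SE, adjusted p = 0.0217). These SEs and p-values rest on a spread shared by all organs and are too small for the wider adrenal spread of Cyp19a1. Hsd17b13, a lipid droplet enzyme of hepatocytes, differed from liver by -6.31 ± 0.21 (SE). Esr2, the estrogen receptor beta, had a value in 23 of 30 adrenal samples, from -9.25 to -4.36, and in all 30 lung samples, from -5.12 to -1.98, and was not tested. Among 6 vasoactive peptides and receptors of 19 on that list, Npr1 and F2r were higher than in all 4 organs. Apln, the peptide apelin, ran from -5.41 to -1.59 in the adrenal gland and from -0.75 to 1.58 in lung, without overlap, a difference of -4.78 ± 0.19 (SE), and differed from spleen by 2.53 ± 0.19. Hcrtr1, an orexin receptor, differed from kidney by -1.40 ± 0.26 and from liver by 1.83 ± 0.28 (SE). In WKY alone the difference from kidney was -0.41 (adjusted p = 0.333). Uts2, the peptide urotensin II, was 3.47 ± 0.32 higher than in liver (SE), and its difference from lung was 0.49 ± 0.31 (adjusted p = 0.119), or -1.26 with 4 reference genes. Nts, neurotensin, had a value in 29 of 30 adrenal samples against 14 of 30 kidney, 21 of 27 liver, 26 of 30 lung and 4 of 29 spleen samples, and was not tested.

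Cytokines and chemokines were low in the adrenal gland next to lung and spleen. Of 9 panel members of 22 on the list, 8 were lower than in lung, where 36% of all tested genes were, and 8 lower than in spleen, where 35.6% were, and Mif, macrophage migration inhibitory factor, was higher in both comparisons, by 3.10 ± 0.09 and 1.93 ± 0.09 (SE). With 4 reference genes as the baseline 62 of the 86 genes tested were lower than in lung, so that 8 of 9 then lay nearer to the count over all genes. Il6 ran from -9.28 to -5.95 in 28 adrenal samples (median -7.15) and from -1.98 to 1.42 in 28 spleen samples (median 0.34), a difference of -7.56 ± 0.19 (SE, adjusted p = 1.6e-52) with no overlap. Il10, an anti-inflammatory cytokine, differed from spleen by -4.25 ± 0.33 (SE) and from liver by -3.82 ± 0.35. Ilrn, spelled as in the table, differed from spleen by -3.30 ± 0.12 and from liver by -3.40 ± 0.12 (SE). Against kidney the list was mixed, with 2 members higher (Ccl5 and Ccr1, both of chemokine signalling), 3 lower (Il6, Tnf and Mif) and a median difference of -0.15. The medians were -0.75 against liver, -1.04 against lung and -2.95 against spleen. The macrophage list (2 of 5 genes, Tlr4 and Ccr1) summed to -0.01 to 1.32 in the adrenal gland, 1.71 to 2.59 in lung and 1.70 to 2.84 in spleen, without overlap. This sum repeats results given above, since Ccr1 is among the 8 and Tlr4 was called lowest. Tlr4 alone ran from -1.56 to 0.41, 1.19 to 2.13 and 1.38 to 2.26 in these organs. Ccr1 alone overlapped, at -0.95 to 0.46, -0.34 to 1.53 and -0.83 to 1.36. Ebf1, the 1 of 5 B cell markers on the panel, was at -6.57 to -3.04 in the adrenal gland and -4.43 to -1.86 in spleen. The part of macrophages and B cells in these differences was not tested. Cd86, a costimulatory molecule of antigen-presenting cells, differed from spleen by -5.38 ± 0.17 (SE).

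**Figure D3:**
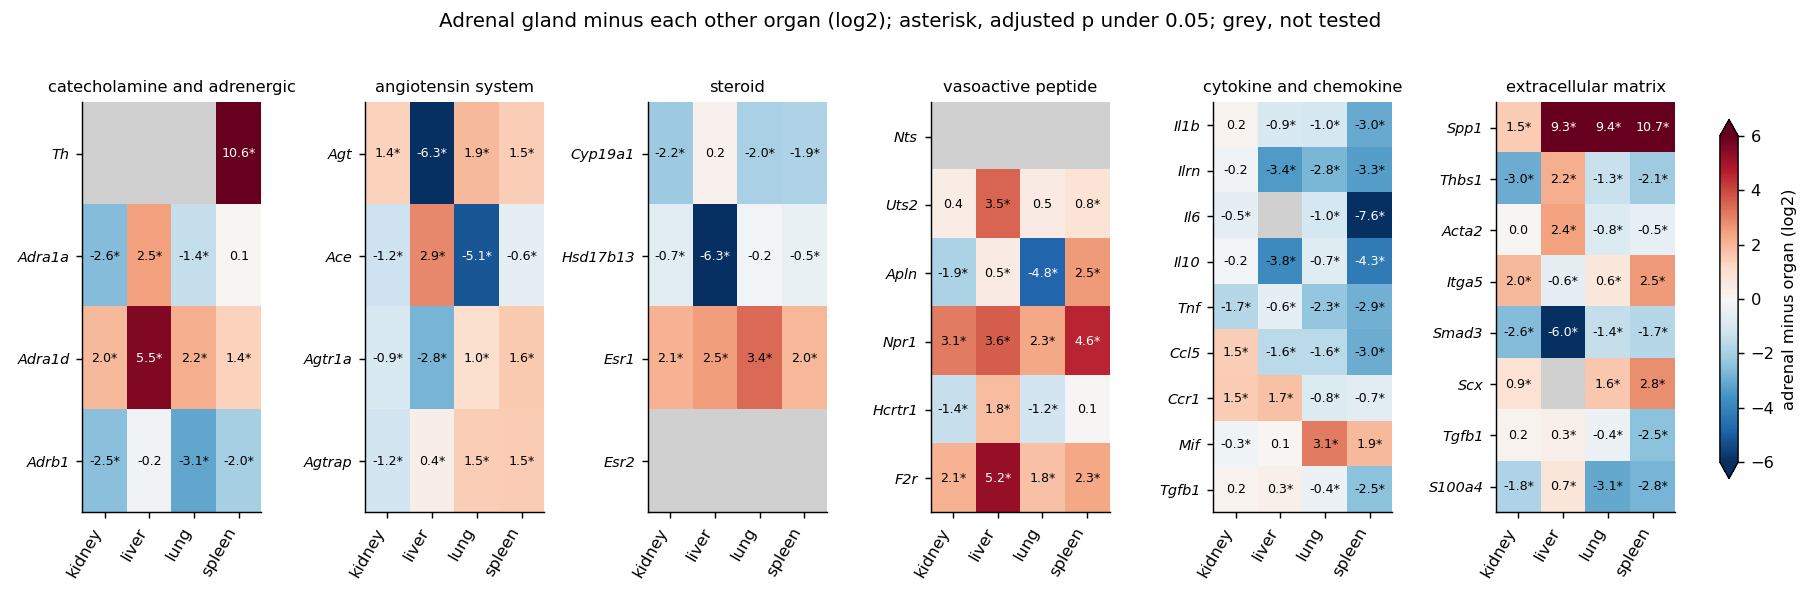
Adrenal gland minus each other organ for panel members of 6 gene lists. Each cell gives the log2 difference (red, higher in the adrenal gland; blue, lower), an asterisk marks an adjusted p under 0.05, and grey cells were not tested. Npr1, F2r, Esr1 and Adra1d are red in all 4 columns, and the cytokines and chemokines other than Mif are blue against lung and spleen.

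Nox4, the NADPH oxidase first described in kidney, was at -8.09 to -0.77 in the adrenal gland (median -4.39) and 0.69 to 5.47 in kidney (median 4.13), a difference of -8.19 ± 0.24 without overlap (SE). Hgd, an enzyme of tyrosine breakdown, differed from kidney by -7.22 ± 0.20 and from liver by -8.16 ± 0.22 (SE). Arg1, the arginase of the urea cycle, differed from liver by -9.63 ± 0.17. Ephx2, the soluble epoxide hydrolase, differed from kidney by -3.19 ± 0.18, from liver by -3.35 ± 0.19 and from spleen by 1.80 ± 0.18 (SE). Arg2, the arginase of mitochondria, differed from kidney by -3.27 ± 0.47 (SE), with 29 adrenal samples from -11.39 to -1.27 (median -3.17) overlapping the kidney samples, at -2.82 to -0.86 (median -1.77). S100a4, a calcium-binding protein of motile cells, differed from lung by -3.09 ± 0.25 (SE). On the other side, Ptgr1, a reductase that inactivates leukotrienes and prostaglandins, was at 1.72 to 3.42 in the adrenal gland (median 2.78), 4.47 ± 0.09 higher than in lung and 5.81 ± 0.09 higher than in spleen without overlap (SE), but differed from liver by 0.18 ± 0.09 (adjusted p = 0.0568). Lipg, the endothelial lipase, was 4.97 ± 0.15 higher than in liver. Among 8 extracellular matrix genes of 15 on the list, 3 were higher and 3 lower than in kidney (median difference 0.12), 5 higher and 2 lower of 7 tested against liver (0.74), and 3 higher and 5 lower than in lung (-0.58) and in spleen (-1.09), next to the shares over all genes given above. Thbs1, Acta2, Smad3, Tgfb1 and S100a4 were lower than in lung and spleen. Spp1, Itga5, a fibronectin receptor subunit, and Scx, a tendon transcription factor, were higher than in kidney, lung and spleen, though Itga5 and Scx changed sign against lung with 4 reference genes.

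Of the 92 genes 10 could not be tested against all 4 organs, because a group of samples held fewer than 2 values, among them Th, Il6, Nts, Esr2, Scx, Bcl2, Ebf1, Timp3 and Cdkn1a. For Bcl2, which restrains cell death, 24 of 30 adrenal samples had a value, fewer than the 29 kidney, 26 liver, 30 lung and 28 spleen samples. Cdkn1a, a cell cycle inhibitor, had a value in 23 adrenal samples and in 13 of 27 liver samples. Timp3, an inhibitor of matrix proteases, was measured in every adrenal sample, from -8.19 to -5.03, and was 2.04 ± 0.24 higher than in spleen (SE).

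Whether the strains differ in what sets the adrenal gland apart was asked with the difference of adrenal gland minus the mean of the other 4 organs, in SHR minus the same in WKY, over 8, 10, 16 and 24 weeks. It passed the test for 19 of 82 genes (23.2%), 8 with the larger value in SHR and 11 with the larger in WKY, and 24 had an unadjusted p under 0.05. Among the 19 are Agt, Cyp19a1 and Tnf, whose p-values are too small for their wider adrenal spread. Without replicate 2 of the WKY adrenal glands at 10 weeks 12 passed, with the median of the complete genes as the baseline 36, and with missing values set to the last cycle 10. The largest difference by size was that of Cd36, a scavenger receptor that takes up fatty acids. Its level in the adrenal gland was 2.05 to 4.76 in SHR (median 3.59) and 0.83 to 5.79 in WKY (median 1.78). The ranges overlap, and 1.11 ± 0.42 was the difference SHR minus WKY (SE, adjusted p = 0.0454). In lung it was -2.57 to 0.49 in SHR (median -0.08) against 3.15 to 4.85 in WKY (median 4.35), without overlap, and SHR minus WKY was -4.55 in lung, -2.01 in kidney, -1.29 in liver and -1.45 in spleen. Adrenal gland minus the other organs was therefore 1.68 in SHR and -1.75 in WKY, a difference of 3.43 ± 0.47 (SE, adjusted p = 6.91e-09). Only 1 adipocyte marker of 5 was on the panel, Cd36 itself, so fat around the gland was not tested.

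Esr1 stood further above the mean of the other organs in SHR, by 3.16 against 1.77 in WKY (difference 1.38 ± 0.29, SE, adjusted p = 0.000184). In the adrenal gland it was -3.96 to -2.46 in SHR (median -3.24) and -5.08 to -3.01 in WKY (median -4.03). SHR minus WKY was 0.86 ± 0.26 in the adrenal gland (SE, adjusted p = 0.0102) and 0.77 ± 0.26 in lung (adjusted p = 0.0483). It was -0.73 in kidney, -1.33 in liver and -0.79 in spleen, so the rise in SHR was shared with lung. With raw Ct values the strain difference of adrenal gland minus the other organs was 0.72 for Esr1 (adjusted p = 0.322). Ace showed a difference of 1.01 ± 0.22 (SE, adjusted p = 0.000184), with adrenal gland minus the other organs at -0.52 in SHR and -1.52 in WKY. SHR minus WKY was 0.43 ± 0.19 in the adrenal gland (adjusted p = 0.0812) and -1.47 ± 0.19 in kidney (adjusted p = 6.12e-10), and -0.30 to -0.25 in liver, lung and spleen. With 4 reference genes this difference of Ace was 0.69 (adjusted p = 0.0758). The other 5 of the 8 genes with the smallest p had SHR minus WKY differences of -1.50 to -0.83 within the adrenal gland, each past the threshold. Ccl5, a chemokine for T cells, was at -2.43 to -0.16 in SHR (median -0.78) and -1.19 to 1.93 in WKY (median 0.70), and its adrenal difference from the other organs was -1.89 in SHR and -0.58 in WKY, a difference of -1.31 ± 0.30 (SE). Lipg was at -2.46 to 0.00 in SHR (median -1.43) and -1.12 to 0.97 in WKY (median -0.00322), with a strain difference of -1.18 ± 0.25 (SE). For Fosl1, an AP-1 partner of Jun, it was -1.50 ± 0.33, for Hcrtr1 -1.84 ± 0.46 and for E2f1, a cell cycle transcription factor, -1.02 ± 0.29 (SE). With missing values set to the last cycle that of Lipg was -0.88 (adjusted p = 0.315) and that of Hcrtr1 -1.56 (adjusted p = 0.127). Ephx2 is the counterexample: SHR minus WKY was -4.48 in the adrenal gland, -4.68 in kidney, -3.96 in liver, -4.16 in lung and -5.75 in spleen, and the adrenal difference from the other organs was 0.16 ± 0.32 apart between the strains (adjusted p = 0.726).

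**Figure D4:**
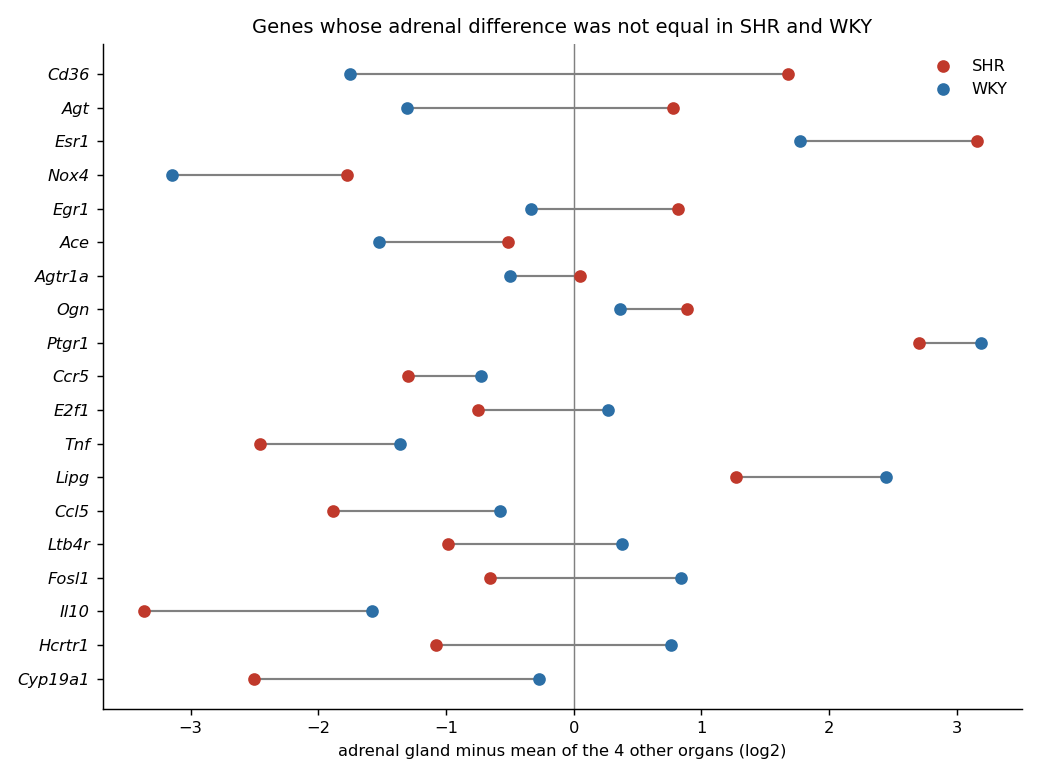
Adrenal gland minus the mean of the other 4 organs (log2 scale), in SHR (red) and in WKY (blue), for the 19 genes that passed the test of a strain difference. Cd36 has the longest line, at 1.68 in SHR and -1.75 in WKY.

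**Figure D5:**
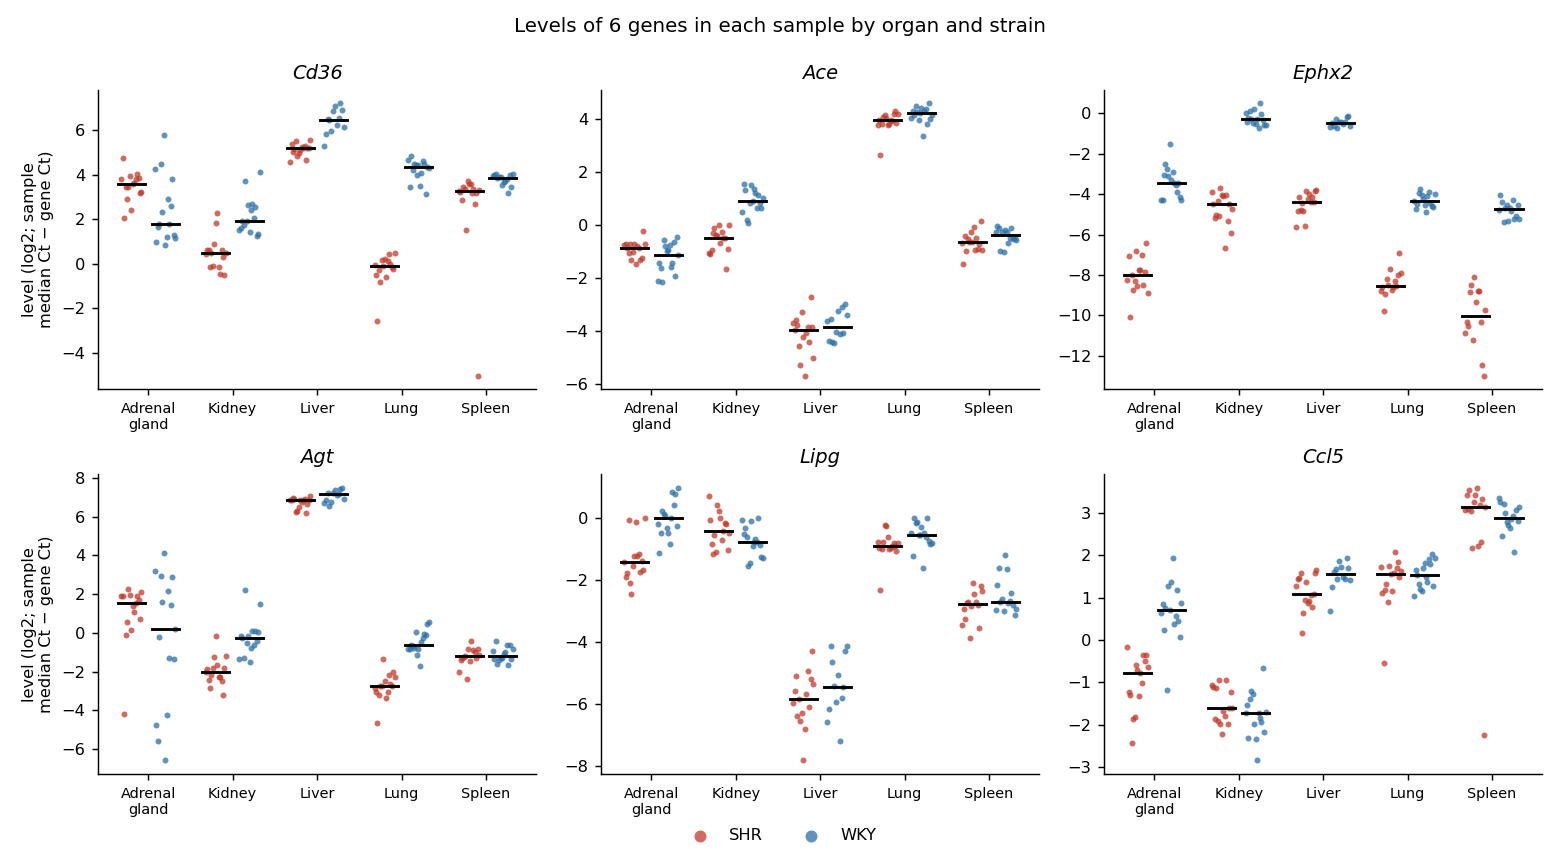
Levels (log2 scale) of 6 genes in every sample by organ, SHR in red left of WKY in blue, with black bars at the medians. In the lung the Cd36 points of SHR lie below all those of WKY, in the adrenal gland the medians stand the other way round, and Ephx2 is lower in SHR in all 5 organs.

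Age changed the adrenal difference from the other organs for 8 of 82 genes (9.76%), with 24 at an unadjusted p under 0.05. This count rests on single adrenal samples: it was 2 without replicate 1 and 4 without replicate 3 of the SHR at 8 weeks, 4 without replicate 1 of the SHR at 10 weeks, 5 without replicate 3 of the SHR at 24 weeks and 16 without replicate 1 of the WKY rats at 24 weeks. Uts2 kept its call in each of these fits. Adrenal gland minus the mean of the other organs was 0.89 at 8 weeks, 3.20 at 10, 0.93 at 16 and -0.24 at 24 weeks (F test in limma, adjusted p = 0.00932). The adrenal level of Uts2 itself averaged -1.04 ± 1.43, 0.10 ± 0.95, -1.37 ± 1.09 and -2.47 ± 1.57 at these ages (SD, both strains pooled, n = 6 each). The age call of Uts2 was lost with 4 reference genes (adjusted p = 0.0568), 3 reference genes (0.0702) and raw Ct values (0.404). From 8 to 10 weeks the adrenal mean went from -2.06 to 0.56 in SHR and from -0.03 to -0.36 in WKY. Over the same ages the mean fell from -1.66 to -1.96 in kidney and from -4.26 to -5.62 in liver. It fell from -0.79 to -2.60 in lung and from -1.03 to -2.20 in spleen. Il10 had the smallest p (adjusted p = 0.00464), but its low value at 10 weeks came from replicate 2 of the SHR, at -16.93, where the other adrenal samples of that age with a value ran from -8.91 to -7.51. Without that sample the range over the ages was 1.42, against 3.45 with it, and the adjusted p was 0.481.

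Replicate samples of the adrenal gland spread more than those of kidney, liver or lung. The median over genes of the SD within groups was 0.59 in the adrenal gland, 0.37 in kidney, 0.36 in liver, 0.44 in lung and 0.58 in spleen. It was widest for Arg2, at 3.23 in the adrenal gland against 0.33 in kidney, followed by Agt at 2.84 and Cyp19a1 at 2.72. For Agt the adrenal SD was 5.89 times the median of the other organs. In the WKY adrenal glands at 12 weeks its 3 levels were 4.12, -4.21 and -6.58, and in the SHR adrenal glands at 16 weeks they were 1.37, 1.08 and 1.52. For Hspd1 and Adrb1 the adrenal SD was 5.57 and 4.52 times that median. No test was run on these spreads. The SEs and p-values of the organ, strain and age comparisons rest on a spread per gene that all organs share. They are too small for genes whose adrenal spread is far wider, such as Agt, Arg2, Cyp19a1, Hspd1, Adrb1 and Tnf.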

How the data were processed

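RNA of 92 genes in 146 samples was measured by real-time PCR with EvaGreen dye on 96x96 BioMark arrays, after 12 cycles of pre-amplification and 30 qPCR cycles, per the labels' protocols. The authors deposited Ct values without normalization, with 305 of 13432 values missing and a floor at 2.5. The sources used here do not state the threshold rule. The deposited normalized sheet was not used. Per the labels 2 arrays were run, and the array of each sample was not analysed here, so it could not be tested as a batch. Titles and descriptions gave each sample's organ, strain and age, and column headers were matched to titles, some despite small differences in spelling. The same header stood on 2 adrenal columns of WKY rats at 12 weeks. Both were kept in that group without a known replicate number. The lowest adrenal levels of Th (3.49) and Agt (-6.58) come from 1 of them. Column headers of the deposited Ct values read 23 weeks for the oldest rats where the sample titles read 24, and 24 is used.

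The level of a gene was the sample's median Ct minus its Ct. A linear model with 49 group means was fitted with limma 3.58.1 in R 4.3.3, and p-values were adjusted over genes by the Benjamini-Hochberg method at 0.05. A gene was tested where each group used had at least 2 values. Intervals are SEs of the fit, and p-values measure only the spread between these samples, which the labels do not state to be separate animals. The fit used a spread per gene shared by all organs. The fit was tested on simulated data with the same spread in all organs and no Ct floor. That test does not cover the wider adrenal spread or the values at the floor. Named were Th, all genes called highest or lowest, genes with the largest differences in each comparison, members of the fixed lists, the 8 and 5 genes with the smallest p for strain and age, and untested genes. Results of some genes that this rule names are not reported here. The members and lists were chosen with earlier results of these data known. Assays of Itpr1 and Ephb1 gave nearly the same Ct in 144 samples (SD of the difference 0.138) and are not named as separate results. Of the 92 symbols 90 were in the RefSeq table. Organs of a strain and age share replicate numbers, and the labels do not say that a number marks 1 rat. The median correlation of same-numbered samples' deviations between adrenal gland and the other organ was 0.0821 for kidney, -0.0314 for liver, 0.118 for lung and -0.0668 for spleen. Other baselines, the treatment of missing and floor values, each strain alone and leaving out samples were tried as alternatives.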

Additional observations from a re-analysis of the deposited data

Results flagged for a closer look

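The adrenal difference from the mean of the other 4 organs differed between SHR and WKY, by a test of that difference in limma, for 8 genes reported above with the smallest p. SHR minus WKY was 3.43 for Cd36, 1.38 for Esr1 and 1.01 for Ace. It was -1.84 for Hcrtr1, -1.50 for Fosl1, -1.31 for Ccl5, -1.18 for Lipg and -1.02 for E2f1.

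The same difference varied between 8, 10, 16 and 24 weeks, by an F test in limma, for the 5 genes with the smallest p. The range over the ages was 3.45 for Il10, 3.43 for Uts2, 1.79 for Tnf, 1.38 for Psap and 1.25 for Slc1a4. Psap, the precursor of lysosomal activator proteins, stood at -0.90 at 8 weeks, 0.44 at 10, 0.48 at 16 and 0.34 at 24 weeks. It lost its call without replicate 1 or 3 of the SHR adrenal glands at 8 weeks. Slc1a4 stood at 0.09, -1.17, -0.86 and -1.05 at these ages and Tnf at -2.55, -0.76, -2.02 and -2.31. Slc1a4 lost its call without replicate 1 of the SHR or replicate 1 or 2 of the WKY adrenal glands at 8 weeks. Tnf lost its call without replicate 1 of the SHR or of the WKY adrenal glands at 8 weeks, or replicate 1 of the SHR or replicate 2 of the WKY adrenal glands at 10 weeks. The age call of Tnf was also lost with 4 reference genes (adjusted p = 0.162), 3 reference genes (0.209), raw Ct values (0.443) and without the samples of aberrant median Ct (0.0639). That of Slc1a4 was lost with the median of complete genes (adjusted p = 0.0995), 3 reference genes (0.0555), missing values at the last cycle (0.846) and raw Ct values (0.443). That of Psap was lost with raw Ct values (adjusted p = 0.416).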

How the results depend on the processing

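The baseline of a sample mattered most. With 4 reference genes 15 genes were higher and 62 lower than in lung and 8 were highest. Next-organ differences then read -0.0384 for F2r, -0.21 for Rela, -0.39 for Foxo1, -0.0105 for Tlr3, -0.23 for Hmgb1, -0.65 for Fkbp1a and -0.38 for Rhoa, and differences from lung -0.79 for Agtr1a, -0.29 for Agtrap and -1.26 for Uts2. With 3 reference genes, a baseline chosen after seeing the data, the counts were 16, 60 and 8, with -0.0918 for Rela, -0.27 for Foxo1, -0.11 for Hmgb1, -0.53 for Fkbp1a, -0.26 for Rhoa, and against lung -0.67 for Agtr1a, -0.17 for Agtrap and -1.14 for Uts2. With raw Ct values 16 genes were higher and 51 lower than in lung, 9 highest, 2 lowest and 1 called for age, with -0.0417 for Rela, -0.22 for Foxo1, -0.0625 for Hmgb1, -0.48 for Fkbp1a, -0.21 for Rhoa, 0.0342 for Tlr4, and against lung -0.62 for Agtr1a, -0.12 for Agtrap and -1.09 for Uts2. The median of complete genes gave -0.0323 for Rhoa and 36 genes called for strain. Actb, part of both reference baselines, sat at the floor in 27 of 30 lung and 22 of 29 spleen samples. The cause of these shifts was not tested. Missing values set to the last cycle gave 0.0275 for Slc1a4 and 10 genes called for strain. Hcrtr1 against spleen was -0.88 in SHR alone (adjusted p = 0.0197) and 1.01 in WKY alone (adjusted p = 0.0135). In WKY alone Agt against kidney was -0.15, Apln against liver -0.26 and Hsd17b13 against spleen 0.25. Asking also for a difference of 1 left 21 genes higher and 23 lower than in kidney, 31 higher than in liver, 20 lower than in spleen, 10 highest and 1 lowest, by construction.

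Without 1 adrenal sample, genes higher and lower numbered 32 to 35 and 35 to 36 against kidney, 46 to 49 and 22 to 24 against liver, 47 to 48 and 30 to 31 against lung, and 47 and 29 to 31 against spleen, with 18 to 20 highest, 4 to 5 lowest, 12 to 25 called for strain and 2 to 16 for age. Without all organs of 1 replicate number of a strain and age they numbered 32 to 34 and 34 to 36, 45 to 48 and 22 to 25, 46 to 49 and 30 to 31, and 47 and 30 to 32, with 18 to 20, 4 to 5, 12 to 25 and 4 to 14. With that number as a random replicate block 20 genes were highest, 4 lowest, 20 called for strain and 9 for age, and as a fixed term 18, 4, 20 and 10, where Rhoa lost its call. The correlations do not show that the numbers pair the samples. Values at the Ct floor limit Spp1 and Hspd1, and missing values limit Th and Il6.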
